A study of Mus musculus with 25 samples.

Results

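Tdpoz, Usp17l, Pramel and Pramef genes are multicopy families of the mouse genome whose RNA is known from the 2-cell embryo and, for some PRAME-like copies, from the oocyte. Their rows were taken by symbol: Tdpoz, Pramel or Pramef followed by a digit, and every Usp17l symbol. The rule found 21 of 24412 symbols, namely 5 Tdpoz, 5 Usp17l, 6 Pramel and 5 Pramef rows. All 21 passed the filter on low values, as did 12079 symbols in all. RefSeq now names the 5 Pramef rows as Pramel genes as well, but they are described apart here.

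The 25 RNA libraries cover 4 stages, each with wild type (WT) and Smarca4 knockout (KO) samples. MII oocytes have 3 WT and 2 KO libraries, zygotes at pronuclear stage PN3 4 and 4, early 2-cell embryos (E2C) 3 and 3, and late 2-cell embryos (L2C) 3 and 3. Smarca4 (Brg1) is an ATPase of the BAF chromatin remodelling complex, and the comparison asks how embryos from oocytes without it express these families. Per the labels' protocols, oocytes for sperm injection came from females of 8 to 12 weeks given 7 IU of PMSG and 5 IU of hCG 48 h later. The females were B6D2F1, or Smarca4 flox/flox Gdf9-Cre on C57BL/6, in which the Cre is driven by the promoter of the oocyte gene Gdf9. The strain behind a given library is not named in the labels, so strain and genotype cannot be told apart. Whether replicates are separate animals is not labelled either, and p-values then reflect only the spread of these samples, possibly technical. These are bulk samples, and fewer cells or less RNA per cell cannot be told apart.

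Tdpoz proteins carry a TRAF-like (MATH) domain and a POZ (BTB) domain, the layout of Spop, which brings substrates to a CUL3 ubiquitin ligase. Usp17l proteins are deubiquitinases, enzymes that take ubiquitin off their substrates. Pramel and Pramef proteins are leucine-rich relatives of PRAME, and PRAME-type proteins can serve as substrate adaptors of a CUL2 ubiquitin ligase. Several of these families belong to the set of genes that the transcription factor Dux can switch on around the start of embryonic transcription.

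Most of the rows lie in clusters of related copies. In GRCm38 the Tdpoz rows lie on chromosome 3 (93651542 to 93961314) and the Usp17l rows on chromosome 7 (103249737 to 104862667). The 5 Pramef rows and Pramel1, Pramel4 and Pramel5 lie on chromosome 4, Pramel6 and Pramel7 on chromosome 2, and Pramel3 on chromosome X. GENCODE annotates all 21 as protein coding. Coding sequences were 90.5 to 98.4% identical between Usp17l copies, 76.4 to 88.0% between Tdpoz copies, 56.8 to 74.2% between Pramef rows and 42.1 to 93.4% between Pramel rows.

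Near-identity decides how far one copy's value can be read alone, so the first 60 aligned coding bases that all copies share without a gap are shown for the closest families. Capitals mark bases that differ from the most common base among the copies, and Usp17le starts at position 103 of its annotated coding sequence, the other copies at 1.
Tdpoz1: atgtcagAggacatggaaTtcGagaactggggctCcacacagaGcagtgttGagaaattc
Tdpoz2: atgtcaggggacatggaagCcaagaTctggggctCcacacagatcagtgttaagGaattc
Tdpoz3: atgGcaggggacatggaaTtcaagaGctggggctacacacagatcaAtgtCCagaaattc
Tdpoz4: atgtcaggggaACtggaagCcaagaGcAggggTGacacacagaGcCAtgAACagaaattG
Tdpoz5: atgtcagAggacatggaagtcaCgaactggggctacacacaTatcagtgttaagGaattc
Usp17la: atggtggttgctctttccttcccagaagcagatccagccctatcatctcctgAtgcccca
Usp17lb: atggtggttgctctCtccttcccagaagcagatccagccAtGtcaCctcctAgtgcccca
Usp17lc: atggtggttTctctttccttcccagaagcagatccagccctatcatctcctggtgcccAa
Usp17ld: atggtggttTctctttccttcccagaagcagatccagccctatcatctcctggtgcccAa
Usp17le: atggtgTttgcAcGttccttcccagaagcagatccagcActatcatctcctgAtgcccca

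Usp17lc and Usp17ld are alike in every one of these bases, and Tdpoz4 has the most differing bases, 14 of 60. The libraries were read in 150-base reads, so the share of 150-base windows of each copy's annotated transcripts that recur in another gene was counted. It was 100% for Tdpoz5, whose windows recur in Gm10697, Gm37596 and Gm5543, 70.9% for Pramel4, 49.6% for Pramel3, 40.1% for Pramef17, 36.1% for Usp17ld, 33.4% for Tdpoz3 and 29.4% for Usp17lc. For the other 14 rows it was between 0 and 12.3%, and it was 0 for Pramef12, Pramef8, Pramel1, Pramel5, Pramel6 and Pramel7. Between members, whole windows recurred only within Usp17l; the 5 Tdpoz rows share theirs with copies outside the rule. Values of single copies with a high share are uncertain, and each family is also given as a sum per library. A sum takes up only the sharing between members, which was seen within Usp17l. Windows shared with genes outside the rule leave the Tdpoz, Pramel and Pramef sums uncertain too.

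Upstream sequence was at hand for 17 of the 21 rows (RefSeq, GRCm38.p6, the 250 bases before the annotated start). The Usp17l windows are shown because they are much alike (89.3 to 97.3% identical, Usp17la and Usp17lb 90.5%) while the copies part between the stages. The 6 letters aligned to the TATAAA of Usp17lb are in capitals in each.
Usp17la, chr7:104856930-104856979, plus strand: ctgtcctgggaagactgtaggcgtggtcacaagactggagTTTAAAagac
Usp17lb, chr7:104842605-104842654, minus strand: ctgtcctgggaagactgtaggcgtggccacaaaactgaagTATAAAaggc
Usp17lc, chr7:103416568-103416617, plus strand: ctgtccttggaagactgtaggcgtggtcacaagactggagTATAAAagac
Usp17ld, chr7:103252606-103252655, minus strand: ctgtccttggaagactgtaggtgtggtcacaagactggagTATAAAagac

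TATAAA, searched on both strands, was in the windows of Usp17lb, Usp17lc and Usp17ld and not in that of Usp17la; 12.4% of all 32851 windows hold it. The RefSeq models of Usp17ld, Pramef17, Pramel7, Tdpoz4 and Tdpoz5 begin at their ATG, so these 5 windows may not reach the true promoter. That of Pramel7 lies within its GENCODE gene. The Usp17lc stretch lies in the intron of the longer GENCODE transcript of that gene and before the start of the shorter one. TAATCC, the core bound by OBOX and CRX homeodomain factors, was in the windows of Pramef6, Pramel4, Pramel5 and Tdpoz1, against 6.25% of all windows. TCAAGGNCA, the form bound by NR5A receptors, was in those of Pramel4 and Pramel5, against 1.39%. A match is only a description of the letters in a window. Pramel4 and Pramel5 are shown because both motifs stand side by side in each (capitals, the second as its reverse complement). The coding sequences of this pair are 93.4% identical, and all 6 Pramel rows rose at the step at which these 2 did.
Pramel4, chr4:144059004-144059052, plus strand: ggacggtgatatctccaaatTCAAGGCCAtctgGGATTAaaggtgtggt
Pramel5, chr4:144280554-144280602, minus strand: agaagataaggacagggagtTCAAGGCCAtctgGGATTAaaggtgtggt

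Values are FPKM (fragments scaled to transcript length and library total), rescaled between libraries. The file gives no read counts, so depth is unknown. Differences are between group means of log2(scaled FPKM + 1), which understates the change of low genes. They were tested with limma on the libraries of the stages compared, and a gene was called at a Benjamini-Hochberg adjusted p under 0.05 over all genes tested. Smarca4 was at 0.219 to 0.448 in the KO libraries at MII and PN3 and at 26.0 to 33.2 in WT. At E2C it was 0.767 to 5.12 in KO and 19.0 to 34.9 in WT, and at L2C 21.0 to 22.5 in KO and 48.5 to 90.4 in WT. Oocyte markers summed to between 426 and 3691 in every library, cumulus and granulosa markers to at most 2.57 and blood markers to at most 1.68. Sperm markers summed to 20.8 in KO E2C replicate 2, of which the protamine Prm2 made up 14.8, and to at most 8.85 elsewhere. Without that library the KO difference at E2C was -0.90 for the Tdpoz sum and -0.79 for the Usp17l sum (log2), beside -0.96 and -0.78 with it. A further pair of libraries stands apart. WT E2C replicate 2 had the fewest symbols above 0, 9345 against 13585 to 16698 elsewhere. WT L2C replicate 3 differed from WT L2C replicates 1 and 2 by 0.57 and 0.54 (mean absolute log2 difference over the genes tested) and from KO L2C replicates 2 and 3 by 0.26 each. Its Smarca4 value, 48.5, was the lowest of the 3 WT libraries and above every KO library.

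**Figure D1:**
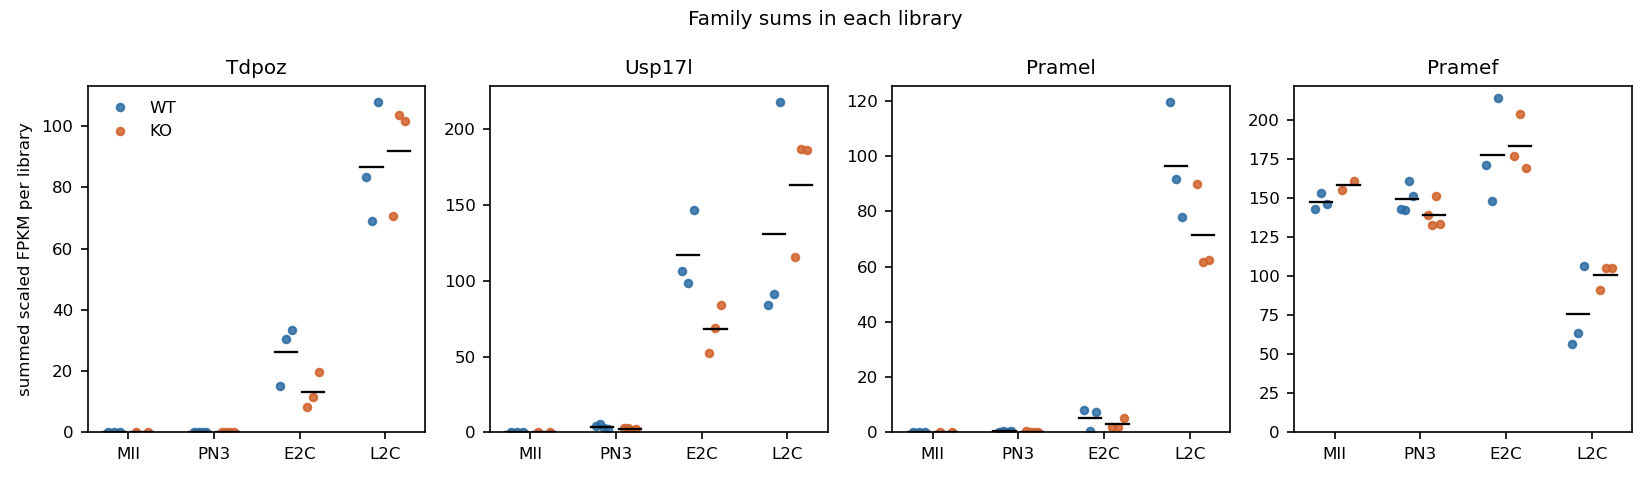
Sum of the scaled FPKM of each family's rows (vertical axes) in every library, by stage and genotype; points are libraries and bars the group means. Tdpoz, Usp17l and Pramel are near 0 in oocytes, whereas the Pramef sum is at 143 to 161 there and lower at L2C.

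Tdpoz RNA was at or near 0 until the 2-cell stage and then higher at each of its phases. The summed level of the 5 rows was at most 0.0508 in every MII library and at most 0.147 in every PN3 library. At E2C it was 15.2, 30.6 and 33.4 in WT against 8.29, 11.5 and 19.8 in KO. At L2C the WT libraries held 83.4, 68.9 and 108, the KO libraries 70.7, 104 and 102. The KO libraries lay lower on the whole at E2C, with overlap, and within the WT range at L2C. On the log2 scale the sum differed between KO and WT by -0.96 at E2C (pooled SD 0.59) and by 0.09 at L2C (pooled SD 0.31).

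All 5 Tdpoz copies rose from PN3 to E2C in both genotypes, a step at which 17.2% of all genes were called higher in WT and 13.9% in KO. The log2 differences were 2.14 to 3.15 in WT and 1.22 to 2.42 in KO, where the genome-wide medians were -0.05 and 0.00. From E2C to L2C, where 34.1% of all genes were called higher in WT and 26.9% in KO, the copies parted: 3 of 5 were called higher in WT and 4 of 5 in KO. Tdpoz1 went from 3.19, 4.13 and 6.03 to 30.0, 25.5 and 30.2 in WT and from 1.47, 1.03 and 1.96 to 16.4, 22.9 and 23.4 in KO. It rose at this step by 2.47 ± 0.25 (log2, SE) in WT and by 3.14 ± 0.25 in KO (limma, adjusted p = 5.15e-06 and 1.43e-06). Tdpoz2 and Tdpoz4 rose too, by 1.90 and 2.30 in WT and by 2.95 and 2.99 in KO. Tdpoz5 rose in KO by 1.65 and was not called in WT (0.89 ± 0.40, limma, adjusted p = 0.0817; 0.0118 and called higher with all 25 libraries in 1 fit).

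Tdpoz3 did not follow them in WT. By group mean it was the highest copy at E2C, at 3.40, 10.7 and 12.7 in WT against 2.67, 4.62 and 6.89 in KO. At L2C it was at 1.34, 1.77 and 14.8 in WT against 5.86, 17.2 and 16.3 in KO. The high WT value belongs to replicate 3, and WT replicates 1 and 2 lie below every KO library. Tdpoz3 made up 33.8% of the family's mean level in WT at E2C and 6.91% at L2C. Fitted on the E2C and L2C libraries, it was not called between these stages in either genotype (-0.93 ± 0.66 in WT, 1.25 ± 0.66 in KO). With 1 fit over all 25 libraries, which shares 1 spread over stages, it was called higher in KO (limma, adjusted p = 0.0425). Without WT L2C replicate 3 it fell by 1.81 in WT (limma, adjusted p = 0.0123).

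**Figure D2:**
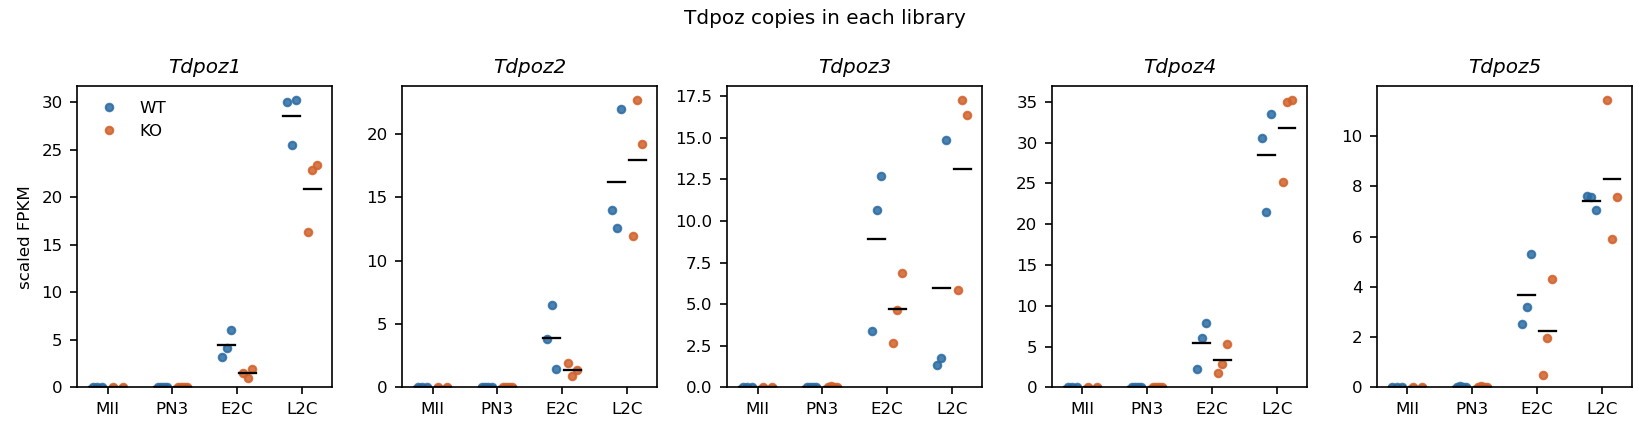
Scaled FPKM (vertical axes) of the 5 Tdpoz copies in every library by stage and genotype; points are libraries and bars group means. Tdpoz1, Tdpoz2 and Tdpoz4 are highest at L2C, and the WT L2C values of Tdpoz3 split into 1.34 and 1.77 against 14.8.

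Usp17l RNA appeared earlier. The summed level of the 5 copies was 0.208 to 0.539 at MII, and at PN3 it was 4.32, 5.47, 2.66 and 2.43 in WT against 3.15, 2.88, 1.34 and 1.99 in KO. At E2C it reached 107, 98.4 and 147 in WT against 52.2, 68.5 and 83.7 in KO. There every KO library lay below every WT library, and the log2 difference of the sums was -0.78 (pooled SD 0.32), a ratio of 0.583. At L2C the sum was 83.8, 91.4 and 218 in WT against 115, 187 and 186 in KO. The order was turned there for WT replicates 1 and 2, while WT replicate 3 was the highest of the 6.

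Usp17lc had the highest share of the family's mean level at PN3, 58.2% in WT and 49.3% in KO. It went from at most 0.173 at MII to 2.72, 2.88, 1.59 and 1.48 at PN3 in WT and 1.34, 1.65, 0.505 and 1.12 in KO. It rose at this step by 1.49 ± 0.19 in WT and 0.98 ± 0.21 in KO (limma, adjusted p = 3.32e-05 and 0.0032), and Usp17ld rose in both genotypes as well (0.52 and 0.54). In WT 4 of 5 Usp17l copies were called higher at PN3 than at MII, the exception being Usp17la, and in KO 2 of 5, against 16.6% and 12.7% of all genes. The WT call of Usp17lb ended without any one WT MII library or WT PN3 replicate 2 (adjusted p 0.0572 to 0.0856), that of Usp17le without WT MII replicates 2 or 3 or WT PN3 replicates 2 or 3 (0.0716 to 0.143), and the KO call of Usp17ld without either KO MII library (0.0956 and 0.0982). With all 25 libraries in 1 fit, Usp17lc in WT was the 1 call left at this step. Over the 20 members tested there, 6 were called higher and 0 lower in WT, where 23.9% of all genes were lower. In KO 3 were called higher and 1 lower, with 19.3% of all genes lower. At MII, 14, 12 and 9 of the 21 rows were at 0 in the WT libraries, and 12 and 9 in the KO libraries. A row at 0 cannot fall, so the low counts of lower calls say little. All 5 Usp17l copies rose from PN3 to E2C, by 3.11 to 4.09 in WT and by 2.69 to 3.72 in KO.

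After E2C the 5 copies split. Usp17lb went from 18.5, 10.3 and 29.2 at E2C to 61.4, 41.4 and 74.4 at L2C in WT, and from 5.66, 6.84 and 15.4 to 53.4, 61.0 and 65.8 in KO. It rose in both genotypes (1.64 ± 0.37 and 2.68 ± 0.37, limma, adjusted p = 0.00232 and 1.04e-04). Usp17la, its neighbour on chromosome 7, went the other way, from 14.7, 7.46 and 20.3 to 0.829, 1.48 and 5.80 in WT and from 8.73, 8.56 and 7.62 to 1.47, 5.35 and 4.34 in KO. It fell by 2.17 in WT (limma, adjusted p = 0.00213), and in KO, where the groups did not overlap either, it was not called (-1.09 ± 0.49, limma, adjusted p = 0.0925). With all 25 libraries in 1 fit it was called lower in KO too (adjusted p = 0.0164). Of this pair, Usp17la has TTTAAA at the aligned upstream position and Usp17lb TATAAA; Usp17lc and Usp17ld also have TATAAA and were not called at this step in WT.

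Usp17le fell most of the 5 copies in WT. It was at 27.7, 19.4 and 29.6 in WT at E2C and at 0.944, 0.770 and 10.7 at L2C, and fell by 2.93 on the log2 scale (SE 0.55, limma, adjusted p = 6.32e-04). In KO it went from 10.9, 13.1 and 20.2 to 5.22, 9.30 and 6.88, which was not called (-0.94 ± 0.55). Usp17lc was at 37.3, 50.1 and 52.4 in WT at E2C and at 15.5, 36.9 and 115 at L2C, with no call. In KO it went from 20.2, 30.0 and 31.8 to 46.3, 98.6 and 94.8 and rose by 1.46 ± 0.52 (limma, adjusted p = 0.0378), a call that ended without any one of KO E2C replicates 1, 2 or 3 or KO L2C replicates 2 or 3 (adjusted p 0.0609 to 0.122), with a pseudocount of 0.1 (0.0532) and with no filter (0.0836). Usp17ld was called at this step in neither genotype. Usp17lb and Usp17lc made up 45.1% and 42.5% of the family's mean level in WT at L2C, and Usp17le went from 21.8% to 3.15%.

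**Figure D3:**
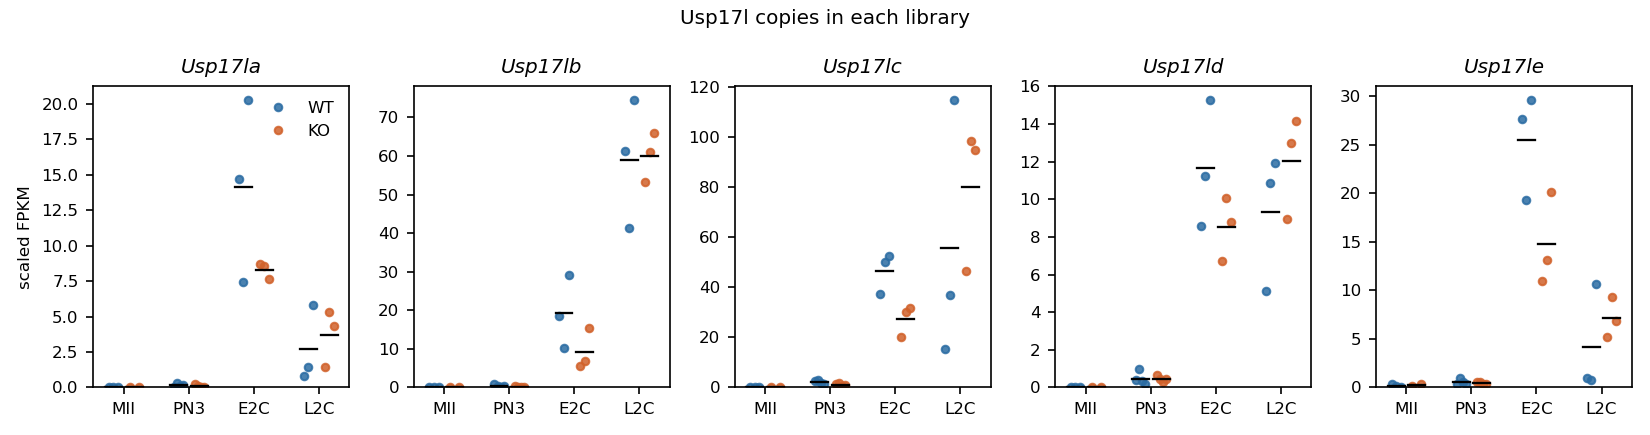
Scaled FPKM (vertical axes) of the 5 Usp17l copies in every library by stage and genotype; points are libraries and bars group means. Usp17la and Usp17le peak at E2C, Usp17lb is highest at L2C, and the L2C values of Usp17lc reach from 15.5 to 115 in WT.

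The 6 Pramel rows were the latest. Their sum was at most 0.130 at MII and 0.653 at PN3. At E2C it was 8.10, 0.364 and 7.42 in WT, the low value being that of replicate 2, and 2.03, 1.94 and 5.39 in KO. At L2C it was 119, 91.8 and 77.8 in WT against 89.8, 61.7 and 62.2 in KO. The KO libraries lie toward the lower end there and overlap with WT; the log2 difference of the sums was -0.43 (pooled SD 0.31). At E2C it was -0.29 (pooled SD 1.18), which became -1.19 without WT replicate 2 and up to 0.18 without another library.

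All 6 Pramel rows rose from E2C to L2C in both genotypes. Pramel7, which in mouse pluripotent cells promotes the degradation of the DNA methylation factor UHRF1, had the largest difference of all 21 members at this step in both genotypes. It went from 4.11, 0 and 1.84 to 66.6, 45.0 and 48.8 in WT and from 0.841, 0.259 and 0.722 to 45.1, 34.8 and 35.3 in KO (4.46 ± 0.44 and 4.62 ± 0.44, limma, adjusted p = 4.21e-06 and 6.14e-06). Pramel6, its neighbour on chromosome 2, reached 22.9, 23.2 and 13.5 in WT against 15.8, 11.2 and 11.3 in KO, with differences of 3.23 and 3.26. The rows on chromosomes 4 and X reached lower levels. Pramel4 was at 13.5, 9.73 and 5.85 in WT against 5.72, 4.98 and 5.00 in KO, and Pramel3 at 5.06, 5.76 and 2.71 in WT against 2.36, 1.92 and 1.55 in KO. For both, every KO library lay below every WT library. Pramel1 and Pramel5 were at 2.39 to 5.68 in WT; 1 KO library held Pramel1 at 15.8, the others at 4.37 and 4.30.

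Before that step the Pramel rows were hardly above 0. From PN3 to E2C, Pramel4, Pramel6 and Pramel7 were called higher in WT (0.89 to 1.26) and Pramel1 in KO (0.55). Each of these 4 calls ended under at least 1 left-out library: Pramel4 without WT E2C replicate 3 (adjusted p = 0.0698), Pramel6 without WT E2C replicates 1 or 3 (0.101 and 0.079), Pramel7 without WT E2C replicate 1 (0.0629), and Pramel1 without KO E2C replicate 2 or KO PN3 replicates 3 or 4 (0.0944, 0.0624 and 0.0534).

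Pramef rows behaved unlike one another, and the sum mostly follows Pramef12. The family sum was 143 to 161 at MII and 132 to 161 at PN3 over both genotypes. At E2C it was 171, 148 and 214 in WT against 177, 203 and 169 in KO, and at L2C 56.8, 63.6 and 106 in WT against 91.2, 105 and 105 in KO. Pramef12 alone made up 92.3% of the family's mean level in WT oocytes and 50.0% at L2C.

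Pramef12 was present from the oocyte on and fell in the late 2-cell embryo. In WT it was at 132, 140.4 and 135 at MII, 137, 122 and 164 at E2C and 33.4, 31.8 and 48.1 at L2C. In KO it was at 145 and 151 at MII, 153, 177 and 136 at E2C and 53.1, 57.3 and 55.9 at L2C. From E2C to L2C it fell by 1.89 in WT and by 1.46 in KO (limma, adjusted p = 3.13e-06 and 3.96e-05). At L2C every KO library lay above every WT library. Pramef12 was also the 1 member called lower at PN3 than at MII in KO, by 0.22 on the log2 scale, a call that ended without either KO MII library (adjusted p = 0.0826 and 0.182) or without KO PN3 replicates 1, 2 or 4 (0.0508, 0.0658 and 0.0556).

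Pramef8 was low and steady in the oocyte and rose in small steps up to E2C. It was at 7.18 to 7.76 at MII, 8.27 to 10.6 at PN3 and 12.3 to 17.0 at E2C over both genotypes. At L2C it was at 8.69, 11.2 and 15.8 in WT and at 16.2, 17.3 and 20.1 in KO. Between E2C and L2C it was called in neither genotype, but higher in KO with all 25 libraries in 1 fit (limma, adjusted p = 0.0373). Its differences were 0.32 and 0.31 from MII to PN3 and 0.50 and 0.41 from PN3 to E2C in WT and KO, all called. The KO calls ended without either MII library at the first step (adjusted p = 0.0598 and 0.127) and without KO E2C replicate 3 or KO PN3 replicates 1, 2 or 4 at the second (up to 0.105). With FPKM as deposited the second step lost its call in both genotypes. The same held with a block for replicate number (limma, adjusted p = 0.101 in WT and 0.156 in KO). Pramef25 and Pramef6 appeared at E2C in both genotypes, like Tdpoz. Pramef25 was at most 0.381 at PN3, at 12.8, 9.45 and 17.8 in WT E2C and at 6.15, 7.86 and 8.34 in KO E2C, where the groups did not overlap. From there it was called higher at L2C in KO (1.22 ± 0.35, limma, adjusted p = 0.0134) and not in WT (0.06 ± 0.35). Without KO E2C replicate 1 or KO L2C replicate 2 this KO call ended (0.0522 and 0.0523). Pramef6 went from at most 0.153 to between 4.09 and 9.77 in WT and between 2.25 and 5.89 in KO, and without WT L2C replicate 3 it fell from E2C to L2C in WT by 1.32 (limma, adjusted p = 0.0351). Pramef17 was at 1.79 to 4.67 at MII and at 3.88 to 9.07 at L2C, and was called higher at L2C than at E2C in WT (1.46 ± 0.52, limma, adjusted p = 0.0304). That call ended without WT E2C replicate 2, where it is listed at 0, and without WT L2C replicates 2 or 3 (0.108, 0.0875 and 0.0921).

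**Figure D4:**
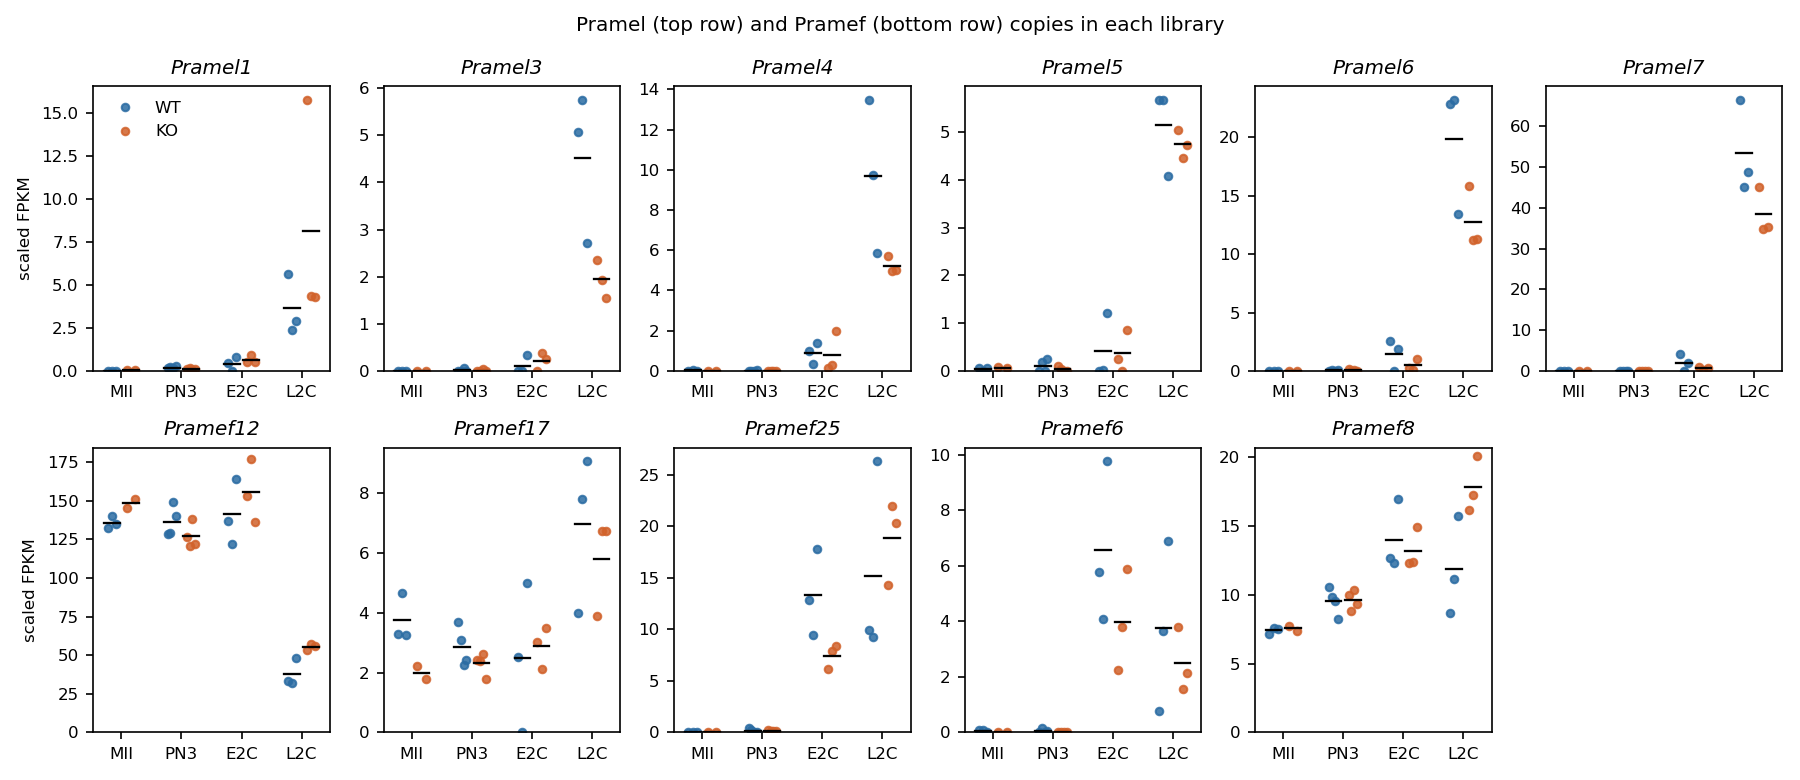
Scaled FPKM (vertical axes) of the 6 Pramel and 5 Pramef rows in every library by stage and genotype; points are libraries and bars group means. All Pramel rows are highest at L2C, Pramef12 is lowest there, and Pramef25 and Pramef6 are near 0 until E2C.

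Counted over the 21 members, 16 were called higher and 0 lower from PN3 to E2C in WT, against a background of 17.2% higher and 22.9% lower. In KO 14 were higher and 0 lower, against 13.9% and 16.9%. The members' median log2 difference was 2.16 in WT and 1.28 in KO. Most members were near 0 at PN3 and passed the filter on low values through their 2-cell libraries. They could hardly be called lower at this step, and the families were chosen as known from the 2-cell embryo. These counts and medians therefore follow in part from the choice and the filter. From E2C to L2C 11 were called higher and 3 lower in WT (Usp17la, Usp17le and Pramef12), against 34.1% and 18.4% of all genes, and 13 higher and 1 lower (Pramef12) in KO, against 26.9% and 13.7%. The median over all genes moved by 0.25 and 0.15 at this step, and that of the members by 1.46 in both genotypes. By family, all 5 Usp17l and all 5 Tdpoz copies were called higher at the first of these steps in both genotypes, and all 6 Pramel rows at the second.

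With all libraries, no member was called between KO and WT at any stage by limma. At MII and PN3 the background was 1.88% and 4.2% called in either direction. At each stage 1 member had an unadjusted p under 0.05 (Pramef17 at MII and Usp17lc at PN3), as did 14.2% and 20% of all genes. Pramef17 was at 3.29, 4.67 and 3.27 in WT oocytes and 2.21 and 1.79 in KO (-0.65 ± 0.17, limma, adjusted p = 0.0757). Usp17lc at PN3 differed by -0.56 ± 0.17 (adjusted p = 0.0908), with overlapping groups.

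At E2C, where 0.00828% of all genes were called, 3 members had an unadjusted p under 0.05 (Tdpoz1, Tdpoz2 and Usp17lb), as did 6.35% of all genes. All 5 Tdpoz and all 5 Usp17l copies had a lower mean in KO, with log2 differences from -1.12 to -0.40, against a median of 0.05 over all genes. The largest was that of Tdpoz1, at 3.19, 4.13 and 6.03 in WT against 1.47, 1.03 and 1.96 in KO (-1.12 ± 0.25, limma, adjusted p = 0.407). Copies of a family share sequence and position, so these 10 are not separate observations. Every KO library lay below every WT library for 3 of 21 members (Tdpoz1, Usp17lc and Pramef25), against 4.38% of all genes, and above for 0, against 5.36%. Pramel and Pramef rows had differences of both signs, from -0.73 to 0.47. Leaving out any 1 library at E2C, WT replicate 2 included, also gave 0 calls. With all 25 libraries in 1 fit, Tdpoz1 was called lower (adjusted p = 0.00569), against 0.927% of all genes. The difference in KO effect between E2C and PN3 was called for 0 members and 0.00829% of all genes; 4 members and 8.3% of all genes had an unadjusted p under 0.05, and Tdpoz2 was called lower without WT E2C replicate 3 (-1.34, adjusted p = 0.0276).

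Dux, which can activate several of these families, was at 13.1, 10.9 and 17.7 in WT against 9.69, 12.7 and 15.0 in KO at E2C, with overlap. Among 21 genes of its programme that were tested (a list made with earlier results of these data known), 20 were called higher from PN3 to E2C in each genotype. Of all genes, 17.2% were called higher in WT and 13.9% in KO. By limma 0 of the 21 were called between KO and WT at any stage. At MII, PN3, E2C and L2C 3, 7, 13 and 4 had an unadjusted p under 0.05, against 14.2%, 20%, 6.35% and 15.5% of all genes. The difference in KO effect between E2C and PN3 was called lower for 1 of them, against 0.00829% of all genes called in either direction. The median KO difference of the 21 genes was -0.85 at E2C and 0.81 at L2C. Beside this, the family medians were -0.70 and 0.14 for Tdpoz and -0.76 and 0.48 for Usp17l. For Pramel they were -0.09 and -0.52, the latter of the other sign, and for Pramef -0.07 and 0.43. B020004J07Rik and Gm12794 of this list are themselves Pramel copies in RefSeq.

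At L2C 0% of genes were called with all libraries, and 5 members had an unadjusted p under 0.05 (Pramef12, Pramef8, Pramel3, Tdpoz3 and Usp17le), as did 15.5% of all genes. The signs differed by family: all 5 Usp17l copies had a higher mean in KO (0.06 to 1.22), and 5 of 6 Pramel rows a lower one (-0.87 to -0.09, all but Pramel1). Every KO library lay above every WT library for 2 members (Pramef12 and Pramef8), against 8.76% of all genes, and below for 3 (Tdpoz1, Pramel3 and Pramel4), against 11.4%. These counts are near what all genes show. Oocyte markers summed to 426, 525 and 953 in WT against 806, 1053 and 1081 in KO at L2C, the high WT value being that of replicate 3; their part in the higher KO values of Pramef12 and Pramef8 was not tested. The difference in KO effect between L2C and E2C was called for 0 members and 0% of all genes, with 5 members and 10.9% of all genes at an unadjusted p under 0.05.

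The calls at L2C turned on 1 library. Without WT L2C replicate 3, 5 members were called higher in KO, against 5.95% of all genes, and 1 lower, against 5.2%. The 5 were Tdpoz3 (2.35 ± 0.53), Usp17le (2.10 ± 0.31), Usp17lc (1.62 ± 0.38), Pramef8 (0.79 ± 0.22) and Pramef12 (0.75 ± 0.16), with adjusted p from 0.00199 to 0.0364 by limma. Pramel3 was the lower one (-1.13 ± 0.29, adjusted p = 0.0276). Without that library the KO effect also differed between L2C and E2C for Tdpoz3, Usp17le, Usp17lc and Pramef25, all higher at L2C (1.62 to 3.05, limma, adjusted p 0.00503 to 0.0395). With all 25 libraries in 1 fit, Pramef12 and Pramef8 were called higher and Pramel3 lower at L2C, against 7.73% and 7.77% of all genes, and Pramel3 had a lower KO effect at L2C than at E2C. At L2C, WT replicate 3 and KO replicates 2 and 3 had 16404, 16267 and 16455 symbols above 0. WT replicates 1 and 2 and KO replicate 1 had 14407, 13638 and 13585. Without WT replicate 3, only WT libraries with the lower numbers remain. KO replicate 1 differed from KO replicates 2 and 3 by 0.43 and 0.42 (mean absolute log2 difference). Why WT replicate 3 lies near the KO libraries, and what part the number of detected symbols has in these calls, was not tested.

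**Figure D5:**
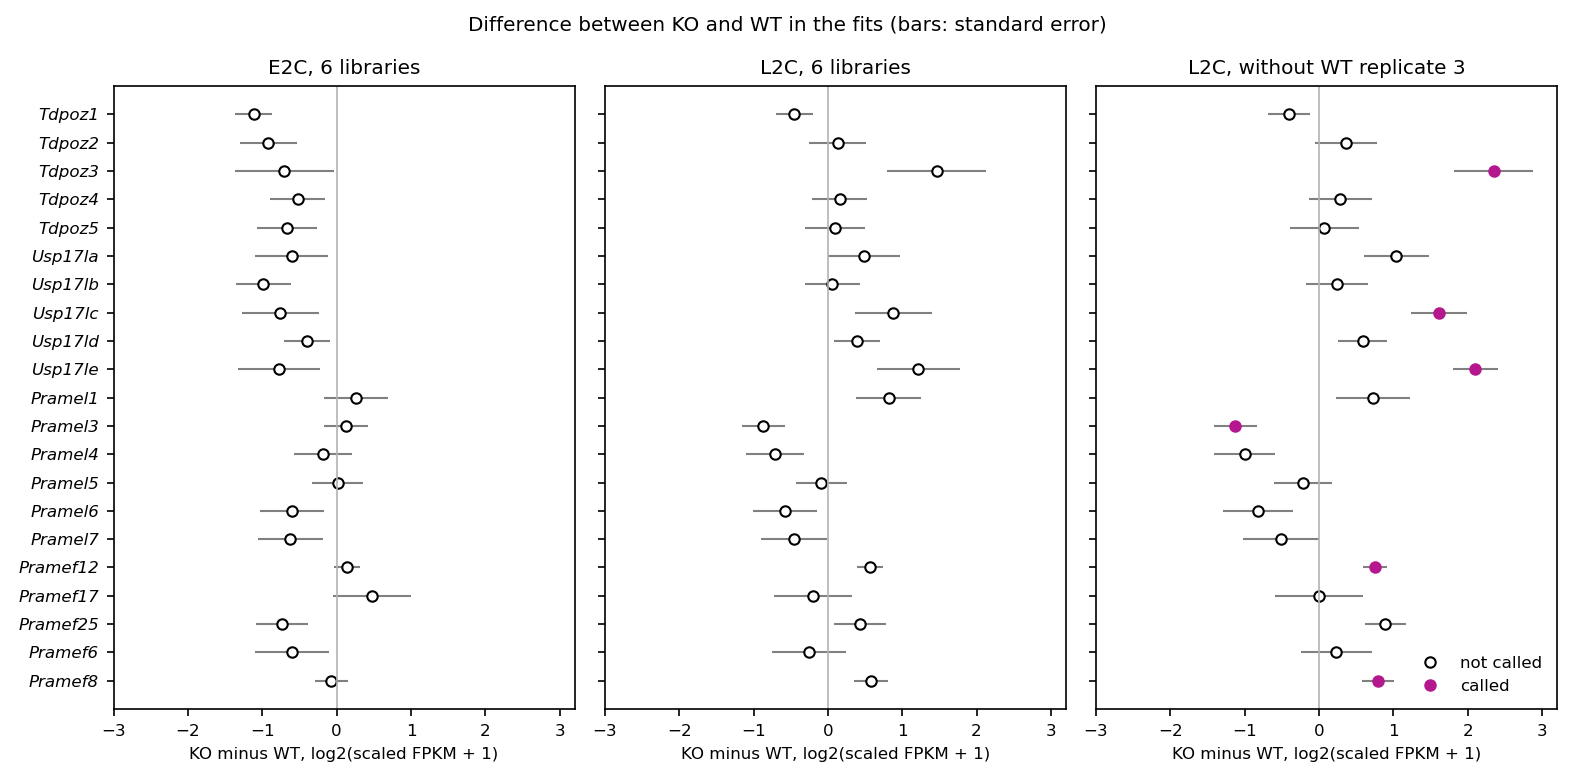
Difference between KO and WT group means of log2(scaled FPKM + 1) (horizontal axes) for the 21 members at E2C, at L2C and at L2C without WT replicate 3; bars are standard errors and filled points were called. No point is filled with all libraries, and 6 are filled without that replicate.

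Other genes of these pathways were called in both directions. Of 3 tested MATH-BTB relatives and parts of their ligase, 1 was called higher and 0 lower from PN3 to E2C in WT. Among 18 tested deubiquitinases, 6 were higher and 4 lower at that step, and 8 higher and 4 lower from E2C to L2C. Over all genes in WT, 17.2% were called higher and 22.9% lower at the first step, and 34.1% and 18.4% at the second. Of 13 tested PRAME relatives with other names and CUL2 ligase genes, 3 were higher and 8 lower from E2C to L2C in WT, with a median of -0.93. C87414, C87499, C87977 and D5Ertd577e of this list are Pramel copies in RefSeq and are counted again among the further Pramel copies below. In KO the counts from PN3 to E2C were 1 higher and 1 lower for the MATH-BTB list and 4 and 3 for the deubiquitinases, and from E2C to L2C 1 higher and 5 lower for the PRAME list. Over all genes in KO, the shares were 13.9% higher and 16.9% lower, then 26.9% and 13.7%. In these 3 lists limma called 0 genes between KO and WT at any stage. At L2C 0, 4 and 5 genes had an unadjusted p under 0.05, against 15.5% of all genes.

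The rule leaves out copies that RefSeq assigns to these families and the files list under another symbol. The 3 further Tdpoz copies, Gm10697, Gm4858 and Gm9125, differed among themselves. From PN3 to E2C 2 of 3 were called higher in each genotype, against 17.2% of all genes in WT and 13.9% in KO. From E2C to L2C 2 of 3 were called higher in WT and 3 of 3 in KO, against 34.1% and 26.9%. Gm10697, whose windows recur in Tdpoz5, was at 0.521 ± 0.902 in WT and 0.731 ± 1.27 in KO at E2C (SD, n = 3 each). With all 3 copies the E2C sum was 44.8 ± 15.1 in WT and 22.0 ± 9.80 in KO (SD, n = 3 each), and the L2C sum 133 ± 31.7 and 147 ± 24.6. Of 20 further Pramel copies, 19 were tested, and 10 of those had a mean of at least 5 in WT oocytes, unlike the 6 rows named Pramel. From E2C to L2C, 10 of the 19 were called lower and 2 higher in WT, and 6 lower and 5 higher in KO. Over all genes, 18.4% were lower and 34.1% higher in WT, and 13.7% and 26.9% in KO. At PN3, 1 of the 19 was called higher in KO than in WT by limma, against 4.2% of all genes called in either direction. At the other stages 0 were called between KO and WT. The summed level of all Pramel and Pramef rows with these copies was 1506 ± 44.2 in WT oocytes and 611 ± 222 in WT against 895 ± 144 in KO at L2C (SD, n = 3 each), and in oocytes most of that sum came from copies under other names.

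Genes outside the families whose log2 values over the 25 libraries lay nearest to a family's sum are given as a description; stage differences dominate these correlations. For Tdpoz they were Gm7102, Spz1, Gm2027, B020004J07Rik (a Pramel copy in RefSeq) and P4ha2, with Pearson's r from 0.992 to 0.997. For Usp17l they were Zfp352, Bbs9, Gm4971, Gmnn and Gm10696 (0.970 to 0.982). Pramel had Mak16, Smad7, Tle3, Cd63 and Hist1h3i (0.989 to 0.992), and Pramef had Obox1, Mapre2, Mkln1, Eef2k and Nlrp4a (0.951 to 0.968).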

How the data were processed

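The deposited files hold 1 FPKM value per symbol and library, computed by the authors. Trim Galore 0.4.5, HISAT2, StringTie, HTSeq, mm10 and GRCm38 are listed in the submitters' processing notes; the tool behind the FPKM and its use of strand are not stated there. FPKM are relative to each library's total, and low values showed no whole-read steps, so depth is unknown and no counting error can be given. Libraries were rescaled by the median ratio over 6492 genes at 1 FPKM or more in every library. Symbols at 1 FPKM or more in at least 3 libraries were tested on log2(scaled FPKM + 1), with a pseudocount of 1, by limma 3.58.1 (R 4.3.3), Benjamini-Hochberg adjusted over all genes tested. Each fit used the libraries of the 2 stages compared (MII with PN3 and E2C with L2C for KO against WT), because the median SD within a group rose from 0.08 (MII) and 0.13 (PN3) to 0.35 (E2C) and 0.32 (L2C). Tdpoz4 was at 0 in all MII and PN3 libraries and not tested there. Family sums were not tested. The fit was tested on simulated data. Members with a group mean of at least 5, at most 12 per family, and members called in any of the 12 contrasts could be named. Sequences came from GENCODE M21 and RefSeq (GRCm38.p6), aligned with mafft 7.526; figures were drawn with matplotlib 3.10.9. The members, lists and tests were chosen with earlier results of these data known.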

Additional observations from a re-analysis of the deposited data

How the results depend on the processing

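Of 334 alternatives to 28 results, 317 left the result within 1.5 times its count or within 1 pooled SD of its difference, and 17 moved it. That margin is wide for spread-out sums, and a difference could change sign within it. Leaving out 1 library gave -1.19 to 0.18 for Pramel at E2C (pooled SD 1.18). For Tdpoz at L2C it gave -0.06 to 0.27. With all 25 libraries in 1 fit, members called between KO and WT numbered 1 at E2C and 3 at L2C instead of 0. In that fit 1 member was called from MII to PN3 in WT and 0 in KO, instead of 6 and 4, and 1 for the change in KO effect from E2C to L2C. With each stage fitted alone, 1 member was called at MII (Pramef17, limma, adjusted p = 0.0383). Leaving out 1 library gave 0 to 6 calls at L2C, 0 to 1 for the change in KO effect from PN3 to E2C, 0 to 4 for that from E2C to L2C, and 1 to 4 from MII to PN3 in KO. No stage met the criterion for pairing by replicate number (over 0.1 in every one of 3 or more pairs): same-numbered deviations correlated at -0.12 to 0.05 at MII, 0.01 to 0.43 at PN3, 0.07 to 0.16 at E2C and -0.18 to 0.22 at L2C, and the own number was the best match for 1 of 2 pairs at MII, 3 of 4 at PN3, 3 of 3 at E2C and 1 of 3 at L2C. With a replicate block, 1 member was called at PN3 (Usp17lc, limma, adjusted p = 0.0146), from E2C to L2C in KO Tdpoz3 was called higher (0.0283) and Usp17la lower (0.0423), and the other 11 counts stayed within 1.5 times. Of 68 member calls, 18 were lost under at least 1 alternative, 5 and 4 of them on the steps from MII to PN3 in WT and KO. Differences of low family sums moved, on the log2 scale: with a pseudocount of 0.1, Tdpoz at MII to 0.16, Pramel at MII to 0.39 and Pramel at PN3 to -0.32; with the highest copy in place of the sum, Pramel at MII to 0.021; with FPKM as deposited, Pramef at MII to 0.0488. A sum with the 3 further Tdpoz copies was added after seeing the data and moved none of its 4 differences. The limit throughout is 2 to 4 libraries per group of unknown depth.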

Other observations

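At PN3, before the families reach their 2-cell levels, Dux was at 5.88, 5.18, 3.06 and 3.24 in WT and 2.92, 3.15, 1.54 and 1.39 in KO. In both genotypes replicates 1 and 2 held more Dux than replicates 3 and 4, and the same holds for Usp17lc. The pair of genes was singled out after these values were seen, and no test was made.

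No single library stood far from the others of its group in the 12 PN3 levels examined (4 libraries a group), and groups of 2 or 3 cannot be examined in that way.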
